A study of Caenorhabditis elegans with 4 samples.

Results

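The regions described here are the enriched intervals of chromosome IV in a chromatin immunoprecipitation and sequencing (ChIP-seq) map of LIN-39, chosen by the chromosome named for each interval. The list deposited for the series as a whole is called the combined list, and 1788 of its 8006 intervals (22.3%) lay on IV. The list of replicate 1 held 822 of its 3541 intervals there and that of replicate 2 held 395 of 1743. All 4 libraries of the series, 2 ChIP and 2 input, came from fed L1 larvae, the first larval stage, of the hermaphrodite strain OP18, kept at 20 °C. This strain carries unc-119(ed3) on chromosome III and the transgene wgIs18, which supplies unc-119(+) and lin-39 fused to TY1, EGFP and 3xFLAG. The same transgene and mutation are present in the input libraries, so genotype does not differ between the groups. The chromatin was collected from whole worms with antibodies to GFP, so these data cover the tagged protein of 1 bombarded line, and cells that lack it contribute chromatin without it. Interval lists of both ChIP libraries were used, and data of the inputs were not analysed here. The labels do not say whether the replicates were grown as separate cultures, and what differs between them may be technical.

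LIN-39 is a Hox protein, a homeodomain transcription factor that gives cells of the mid-body their regional identity. In Caenorhabditis elegans it is known for keeping vulval precursor cells from fusing with the epidermis, for the migration of Q neuroblast descendants and for the identity of ventral cord motor neurons. Hox proteins bind short AT-rich sites, often together with the cofactors CEH-20 and UNC-62, and many such sites can lie near 1 gene. Chromosome IV carries neither lin-39 nor unc-119, which both lie on III in the RefSeq table of assembly WBcel235. In that table IV holds 14714 of the 15363 piRNA genes (95.8%), short RNAs of the germline, and 3281 of the 19983 protein-coding genes (16.4%). The interval files use WormBase WS220, a different build, so no interval was assigned to a gene, no sequence is shown, and intervals are named by position, 1-based on WS220.

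Intervals of the combined list ran along the whole of IV, from position 50379 to 17474097, and covered 560930 bp. This is 3.21% of the 17477576 bp up to the last interval end in any list, which stands in for the length of the chromosome. The density was 102 intervals per Mb in the combined list, 47.0 in replicate 1 and 22.6 in replicate 2. On the other 5 chromosomes together the corresponding densities were 75.2, 32.9 and 16.3. The lists carry no read numbers, so depth is unknown and a region missing from a list cannot be called unbound.

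No 500 kb window of IV was empty in any list. Over the 34 full windows the combined list had from 31 to 92 intervals, with a median of 50. Replicate 1 had from 12 to 41 with a median of 23.5, and replicate 2 from 6 to 29 with a median of 11. The highest count of all 3 lists fell in the same window, 3500001 to 4000000, with 92, 41 and 29 intervals. The next windows in the combined list were 5500001 to 6000000 and 16000001 to 16500000, with 72 each. The sparsest were 8000001 to 8500000 with 31, 10500001 to 11000000 with 33 and 6500001 to 7000000 with 35. The counts of the replicates had a Spearman's rho of 0.60 over the 34 windows and 0.57 without the densest one. This is a description of windows that share both libraries, with no test.

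**Figure D1:**
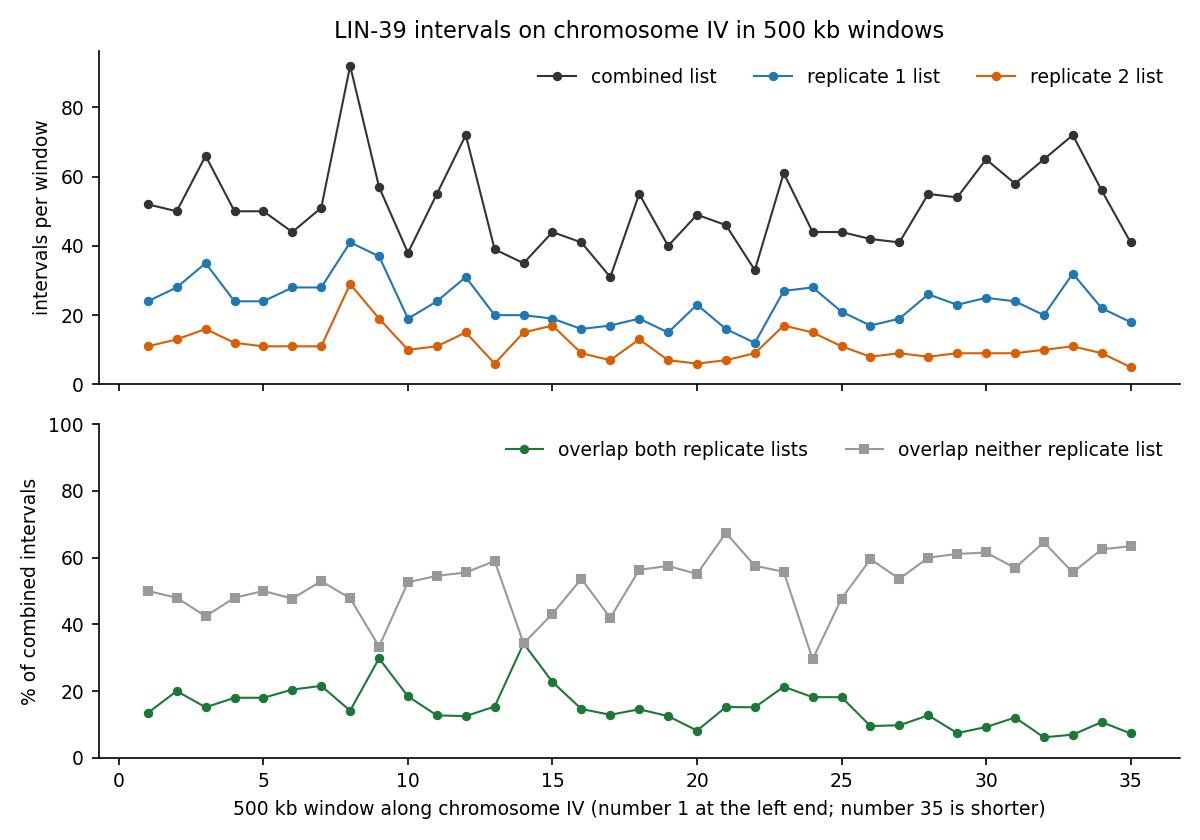
The upper panel plots the number of intervals in each 500 kb window along chromosome IV for the combined list and both replicate lists, and the lower panel the percentage of combined intervals that overlap both or neither of the replicate lists. All 3 lists peak at window 8, with 92, 41 and 29 intervals, and the share supported by both replicates is lowest toward the right end.

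The strongest regions of IV in the combined list were also present in the replicate lists. Whether the combined list pools the reads of both replicates is not stated. If it does, the lists are not independent, and overlap at its strongest intervals is no test of agreement. Each interval carries 1 significance value from the authors, smaller for a stronger region and under 0.001 throughout, used here for ranks inside a list and to set paired intervals side by side. The 15 strongest combined intervals each met an interval in both replicates, and 12 of them met a replicate 1 interval, and 11 a replicate 2 interval, among the 15 strongest of IV in that list. Their widths ran from 570 to 2347 bp with a median of 983 bp. In all 15 the value was smaller in the combined list than in either replicate, and smaller in replicate 1 than in replicate 2. The lowest ranks met were 23 in replicate 1 and 47 in replicate 2.

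The first, at 13695557 to 13697330, had a value of 4.67e-123 in the combined list, 1.46e-79 in replicate 1 and 1.33e-59 in replicate 2, and led IV in each of them. It spanned 1774 bp in the combined list and 1729 bp in replicate 1, but 804 bp in replicate 2. The second, at 14032581 to 14034654, had values of 2.62e-89, 7.83e-53 and 3.17e-39 in the same order of lists. It too held the same rank in each list, and with 1851 bp it was the widest interval of replicate 2 on IV. The third, at 8431394 to 8433347 (1.14e-64), ranked 4 in replicate 1 and 5 in replicate 2.

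The remaining 12 had combined values between 2.45e-56 and 3.85e-43 and were spread over the chromosome. On the left they were at 654577 to 655319, 1093823 to 1094580, 2219170 to 2220615, 2601901 to 2602883, 3024482 to 3026379 and 4749737 to 4750306. Toward the middle they were at 10935076 to 10937422 and 11067681 to 11068731. On the right they were at 13699302 to 13700084, 15471192 to 15471817, 16415070 to 16415921 and 17249311 to 17250081. The interval starting at 13699302 lies in the same run as the strongest interval of IV, less than 2 kb after it.

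Among these 15 the ranks of the replicates were farthest apart at 1 wide interval. At 10935076 to 10937422, the widest combined interval on IV with 2347 bp, replicate 1 had 1 interval of 2219 bp with a value of 9.27e-38, while replicate 2 had 2 intervals, the stronger with 658 bp and 1.10e-11. That is rank 6 in replicate 1 against rank 47 in replicate 2. At 3024482 to 3026379 it was replicate 1 that had 2 intervals, the stronger with 3.03e-24 and rank 23, against 1 interval with 1.29e-13 and rank 31 in replicate 2.

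**Figure D2:**
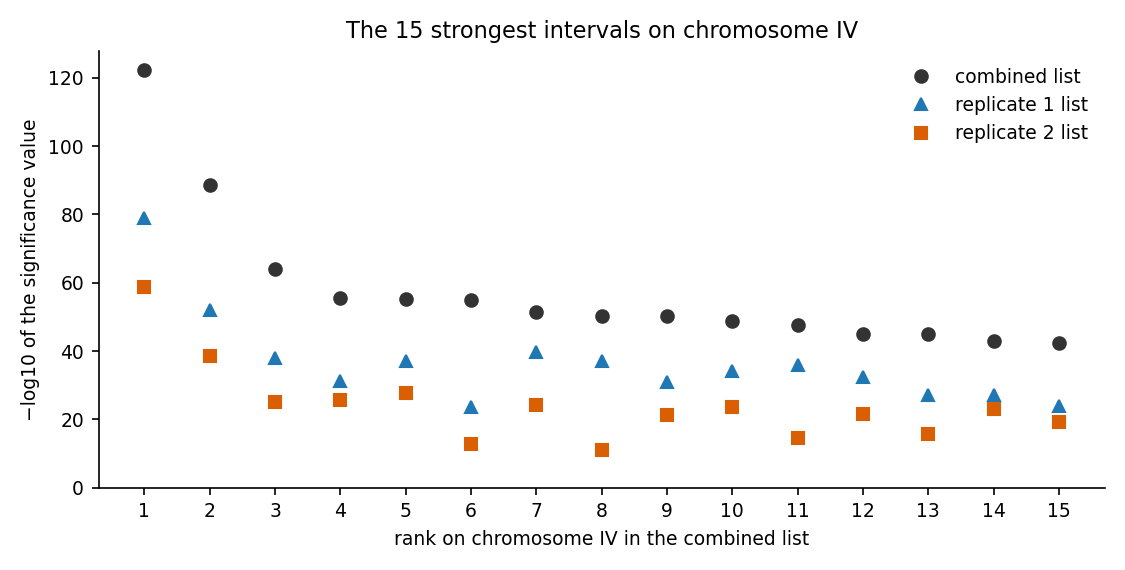
The plot shows −log10 of the authors' significance value for the 15 strongest combined intervals of chromosome IV and for the strongest replicate interval that overlaps each. The combined value is the highest at all 15, and replicate 1 lies above replicate 2 at all 15, by the least at rank 14.

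Of the 1788 combined intervals on IV, 264 overlapped both replicate lists (14.8%, exact 95% interval 13.2 to 16.5%), against a background of 15.7% over all chromosomes. Another 474 (26.5%) overlapped replicate 1 alone and 105 (5.87%) replicate 2 alone, with backgrounds of 24.2% and 4.72%. The remaining 945 (52.9%, 50.5 to 55.2%) overlapped neither, where the background is 55.4%. Overlap means at least 1 shared bp, and the intervals around shares are Clopper-Pearson and cover counting error at most. Against the other chromosomes, the share supported by both was 14.8% against 16.0% and did not pass Fisher's exact test (two-sided, adjusted p = 0.21 over 4 shares). The share supported by neither was 3.26 percentage points lower on IV, 52.9% against 56.1% (Fisher's exact test, adjusted p = 0.0202). With a reciprocal overlap of 50% the difference was 1.35 points in the same direction and did not pass (Fisher's exact test, adjusted p = 0.309), nor did it without the longest run, at 2.79 points (adjusted p = 0.0519). Set against each chromosome alone, adjusted over the 5, IV was lower than I (59.9%, adjusted p = 9.69e-04), III (58.5%, adjusted p = 0.0119) and V (56.9%, adjusted p = 0.0302) by Fisher's exact test. The difference from X (54.0%) did not pass, and II (51.8%) lay below IV and did not pass either (Fisher's exact test, adjusted p = 0.581 for both).

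Support went with strength and width, which were not separate from each other. When the whole combined list was divided into 5 equal groups by value, IV had 334 intervals in the strongest group, of which 245 (73.4%, 68.3 to 78.0%) overlapped both replicates. In the next group it was 18 of 361 (4.99%), in the middle group 1 of 372, and 0 of 362 and 0 of 359 in the weakest groups, which allows shares of up to 0.829% and 0.836% (3 counts). On the other chromosomes the strongest group was at 73.4% and the next at 4.60%. The strongest interval supported by neither replicate ranked 232 on IV. All lists end at a value of 0.001, so a weak combined interval has little room to pass in a replicate list too. The part of this limit in the decline was not tested. If the combined list pools the reads of both replicates, value and overlap are not independent, and the decline is no test of agreement. Stronger intervals were also wider, with a median on IV of 560.5 bp in the strongest group and 123 bp in the weakest.

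Intervals supported by both replicates had a median width of 562.5 bp on IV and a lowest width of 235 bp. The medians were 289.5 bp with replicate 1 alone, 295 bp with replicate 2 alone and 163 bp with neither. Wide intervals have more room to overlap, and their part in these shares was not tested. Of the 193 intervals under 50 bp, 161 (83.4%) overlapped neither list, against 86.2% of such intervals on the other chromosomes. Of the 49 of at least 1000 bp, 35 overlapped both (71.4%, 56.7 to 83.4%), against 55.7% on the other chromosomes, a difference that was not tested. The intervals of IV were narrow, with a median of 236 bp against 303 bp on the other chromosomes together, 227.5 bp on V and 347.5 bp on X. IV was also below the other chromosomes together in the replicate lists, with medians of 332 against 385 bp in replicate 1 and 386 against 442 bp in replicate 2. There V was wider than IV, at 343.5 and 409.5 bp. Among intervals of at least 200 and under 500 bp alone, the share supported by both was 15.9% on IV and 14.0% elsewhere, the opposite direction to that of all widths, and did not pass either (Fisher's exact test, adjusted p = 0.234). In that width class the share supported by neither was 42.9% on IV and 52.3% elsewhere (Fisher's exact test, adjusted p = 3.79e-05).

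The 10 widest combined intervals of IV included 4 of its 6 strongest, described above, and the one at 10935076. The second widest was an exception: 9089118 to 9091442, with 2325 bp and a value of 2.50e-18, overlapped a replicate 1 interval of 2416 bp and no interval of replicate 2. The remaining 4 were at 3848988 to 3850734, 15569777 to 15571385, 11592841 to 11594403 and 5655956 to 5657500, with ranks from 37 to 147 on IV, and each overlapped both lists.

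Over the whole list, replicate 2 intervals met replicate 1 less often on IV than on the other chromosomes together. Of the 395 replicate 2 intervals on IV, 268 (67.8%, 63.0 to 72.4%) overlapped replicate 1, where the background is 73.8% over all chromosomes, and 1018 of the 1348 on the other chromosomes did so (75.5%). The difference of 7.67 percentage points passed Fisher's exact test (two-sided, adjusted p = 0.0055). Set against each chromosome alone, adjusted over the 5, IV was lower than I (83.0%, adjusted p = 5.02e-04) and III (80.9%, adjusted p = 0.0012) by Fisher's exact test, while the differences from II (74.7%), V (73.6%) and X (69.4%) did not pass (adjusted p = 0.078, 0.115 and 0.733). In the stronger 50% of each list the shares were 87.9% on IV and 89.4% elsewhere, a difference of 1.55 points that did not pass (Fisher's exact test, adjusted p = 0.598). Nor did it pass among replicate 2 intervals of at least 200 and under 500 bp, at 68.3% and 72.9% (Fisher's exact test, adjusted p = 0.21). Conversely, 266 of the 822 intervals of replicate 1 on IV (32.4%, 29.2 to 35.7%) overlapped replicate 2, with a background of 36.2%.

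The intervals without a partner were weaker and narrower in each list. In replicate 1 the 556 without a partner had a median value of 2.21e-04 and a median width of 247.5 bp, against 1.02e-08 and 464.5 bp for the 266 with one. In replicate 2 the 127 without a partner had medians of 2.82e-04 and 283 bp, against 8.34e-07 and 428.5 bp for the 268 with one. The strongest replicate 1 intervals without a partner were at 9089301 to 9091716 (1.67e-15), 3024374 to 3025095 (1.71e-11) and 8476179 to 8476811 (1.13e-10). Those of replicate 2 were at 3853132 to 3854036 (8.43e-10), 11489270 to 11490125 (5.13e-09) and 3867554 to 3867961 (9.48e-08). The first and the last of these replicate 2 intervals fall in the longest run of IV, described below.

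For the 261 pairs of intervals on IV that overlapped 1 to 1, the replicates' values had a Spearman's rho of 0.63, and after a −log10 transform a Pearson's r of 0.87. The points share both libraries, so these are descriptions with no test. Replicate 1 had the smaller value in 195 of the 261 pairs (74.7%). In 58 pairs it was smaller by at least 5 orders of magnitude, whereas in 6 pairs replicate 2 was smaller by that much. Of those 6, 3 lay in the longest run, which held 9 of all the pairs. Within it replicate 2 was the stronger in 8 of 9 pairs, and outside it in 58 of 252. The other 3 had their replicate 2 intervals at 11956263 to 11956829 (5.90e-16, against 6.47e-09 in replicate 1), 7507281 to 7508833 and 8333940 to 8334289.

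**Figure D3:**
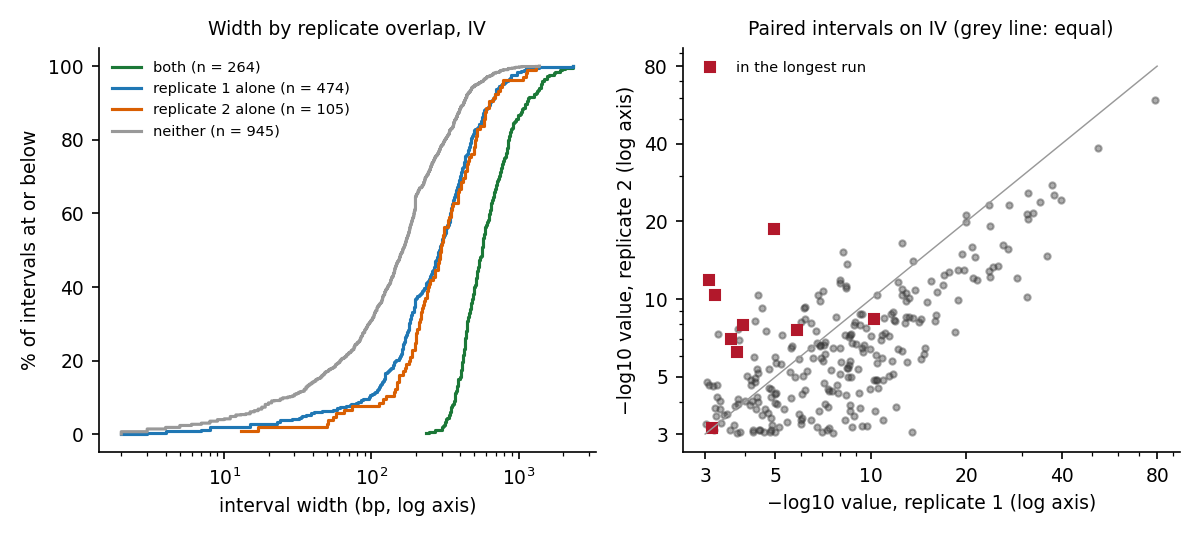
The left panel gives, for combined intervals of chromosome IV by overlap with the replicates, the percentage with a width at or below the value on the log axis, and the right panel sets −log10 of the authors' value in replicate 2 against that in replicate 1 for 261 paired intervals, on log axes. Intervals that overlap both lists are wider (median 562.5 bp) than those that overlap neither (163 bp), and 8 of the 9 squares, the pairs in the longest run, lie on the replicate 2 side of the line.

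Intervals on IV were often close together. With gaps of 2 kb or less between neighbours, 467 of the 1788 combined intervals (26.1%, 24.1 to 28.2%) stood in 120 runs of 3 or more, against a background of 20.4% over all chromosomes and 18.8% on the others. The difference of 7.37 percentage points passed Fisher's exact test (two-sided, adjusted p = 1e-10), and IV was above each other chromosome alone by Fisher's exact test (adjusted p from 1.26e-17 for III to 0.00194 for II). Interval density was also higher on IV, as given above, and its part in this difference was not tested. Whole runs enter the tests of shares in runs together, so their p-values cover less than counting error. The difference was not found in the replicate lists apart from the longest run. In replicate 1 the shares in runs were 9.37% on IV and 9.45% elsewhere (Fisher's exact test, adjusted p = 1). In replicate 2 they were 9.11% and 4.97% (adjusted p = 0.00677), but without the longest run 4.80% of the replicate 2 intervals on IV stood in runs (Fisher's exact test, adjusted p = 1).

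Of the 120 runs, 75 had 3 intervals, 28 had 4, 7 had 5 and 10 had 6 or more, and the median span was 3323 bp. Intervals in runs were wider than the 1321 others, with medians of 308 and 202 bp, and were supported by both replicates at 19.9% (16.4 to 23.8%) against 12.9% (11.2 to 14.9%). They were also stronger, with median values of 1.67e-05 and 7.15e-05, and 26.8% against 15.8% were in the strongest of the 5 value groups. The part of strength and width in this support was not tested. Both replicate lists had an overlapping interval in 67 of the runs, and in 12 runs neither had one. Replicate 1 had more intervals than replicate 2 in 71 runs, as many in 37 and fewer in 12. Its list was also the longer on IV, with 822 intervals against 395, and the runs held 215 of replicate 1 and 133 of replicate 2.

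**Figure D4:**
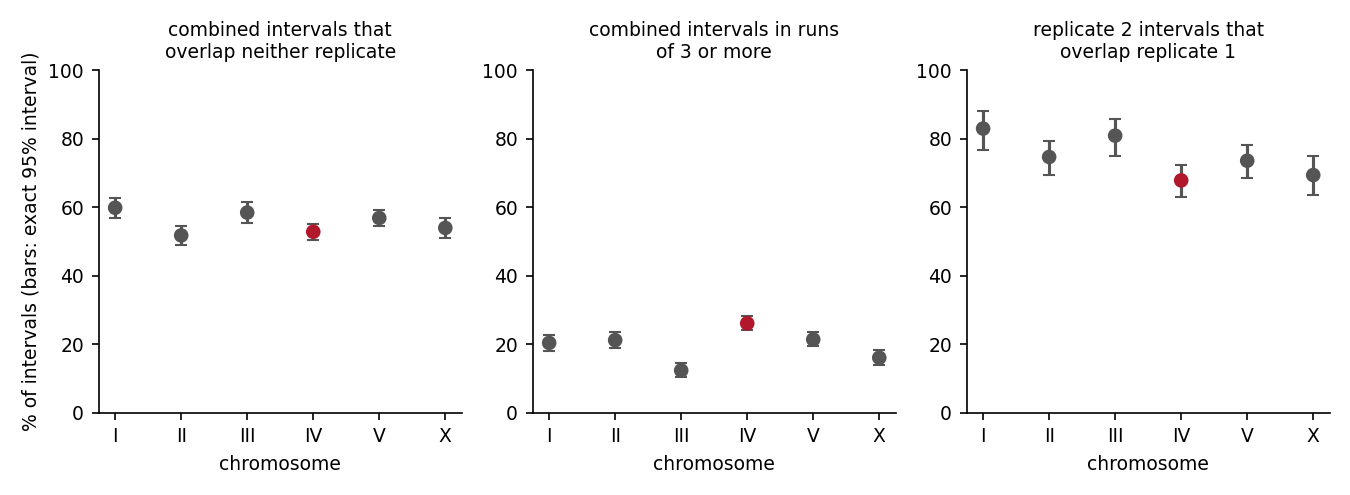
Each point is the percentage of intervals on 1 chromosome that overlap neither replicate list (combined list), stand in runs of 3 or more (combined list) or overlap replicate 1 (replicate 2 list), with exact 95% intervals as bars and chromosome IV in red. IV has the highest share in runs, 26.1%, and the lowest share of replicate 2 intervals that overlap replicate 1, 67.8%, close to the 69.4% of X.

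In the combined list the longest run stood far apart from the rest. It held 29 combined intervals in 31.3 kb, at 3846848 to 3878099, while the next run of IV held 11 and no run on another chromosome held more than 8. The intervals covered 56.5% of its span, with gaps of 214 to 1486 bp. It had 14 intervals of replicate 1 and 20 of replicate 2, or 0.70 replicate 1 intervals for each of replicate 2, against 2.15 on the rest of IV. Replicate 2 intervals covered 35.6% of the span and those of replicate 1 covered 14.3%. Replicate 2 alone had a run of 14 intervals here, at 3849133 to 3864450. Its next run on IV, with 4, also lay here, at 3866722 to 3870505, and elsewhere on IV its longest run had 3. The longest runs of replicate 1 on IV, with 6 intervals each, lay elsewhere, at 3022407 to 3026823 and 4019577 to 4028689. Gaps between the replicate 1 intervals here reached 4828 bp.

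In the combined list, values in the run were those of moderately strong regions. The strongest combined interval, 3848988 to 3850734, had a value of 3.62e-28 and rank 39 on IV, and 24 of the 29 were stronger than the median of IV, 5.77e-05. Of the 29, 12 overlapped replicate 1 and 18 overlapped replicate 2, with 8 of them in both counts, and 7 overlapped neither. The strongest replicate 2 interval, at 3860580 to 3862367 with 1788 bp, had a value of 2.08e-19 and rank 16 on IV in its list. Its partner in replicate 1 had 127 bp and a value of 1.17e-05. The strongest replicate 1 interval, at 3855279 to 3855822, had a value of 5.59e-11 and rank 92. In replicate 1 the values in the run were near those of IV, with medians of 6.37e-05 and 6.92e-05. There 7 of the 14 intervals were stronger than the median of IV in that list. In replicate 2 it was 12 of 20, with medians of 4.16e-07 in the run and 3.01e-05 on IV.

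About 21.1 kb after this run, and with 1 combined interval between, came the longest stretch of IV without a combined interval, 120.5 kb from 3899153 to 4019606. No interval of either replicate lay within it. The next longest such stretch on IV was 117.6 kb. At its far side stood a run of 7 combined intervals, at 4019607 to 4028645, of which 6 overlapped replicate 1 and 4 replicate 2. The density peak at 3500001 to 4000000 therefore held both the longest run and most of this stretch.

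**Figure D5:**
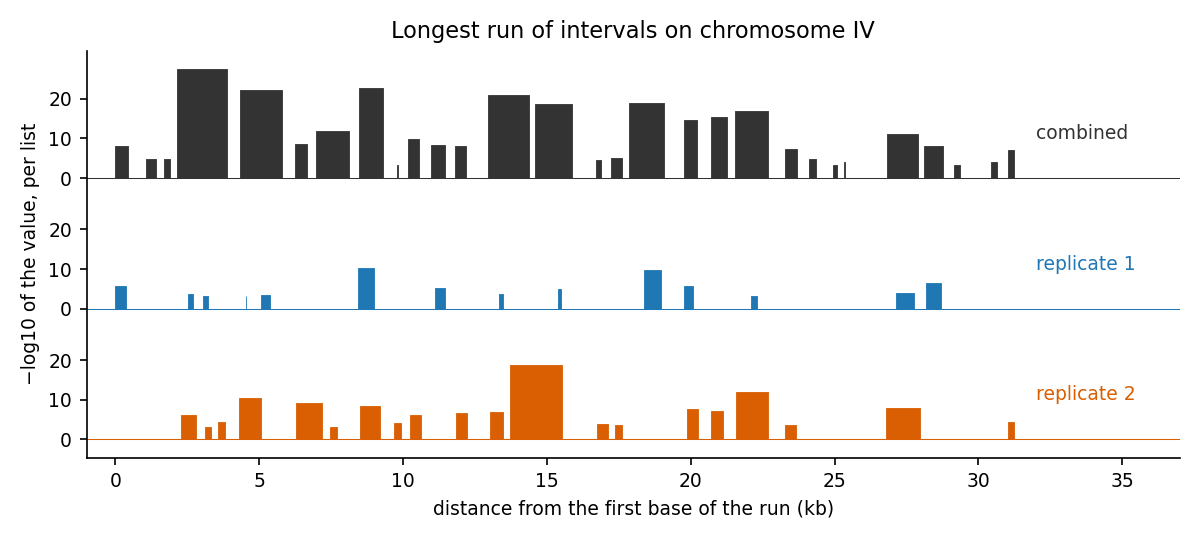
Blocks mark the intervals of each list in the longest run of chromosome IV by distance from its first base, and their height is −log10 of the authors' value on 1 scale for all lists. The 20 blocks of replicate 2 cover 35.6% of the run and the 14 of replicate 1 cover 14.3%.

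Support in the other long runs is given as counts of few intervals, and differences between these runs were not tested. Over all combined intervals of IV, 52.9% overlapped neither list and 14.8% both. Over those in runs it was 46.7% and 19.9%. The run of 11 at 16482898 to 16492010 had 2 combined intervals that overlapped replicate 1, 1 that overlapped replicate 2 and 8 that overlapped neither, with a strongest value of 7.43e-13. The run of 8 at 1086378 to 1095803 contained the strong interval at 1093823, and 5 of its intervals overlapped neither list. The run of 8 at 4468107 to 4478446 had 5 intervals that overlapped replicate 1 and 1 that overlapped replicate 2. The run of 8 at 11061085 to 11071285, with the strong interval at 11067681, had 4 that overlapped both lists and 4 that overlapped neither.

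Support changed along the chromosome. IV was divided into 3 equal parts, left, middle and right, which held 657, 516 and 615 combined intervals. The share supported by both replicates was 17.5% (14.7 to 20.6%) on the left, 16.9% (13.7 to 20.4%) in the middle and 10.1% (7.82 to 12.7%) on the right. The share in the strongest of the 5 value groups ran the same way, at 24.0%, 18.6% and 13.0%, and the median width was 234, 303 and 199 bp. Replicate 2 had 164, 124 and 107 intervals in these parts, and 71.3%, 71.8% and 57.9% of them overlapped replicate 1. The contrast of left and right was seen in the data first, so it is given without a test. The middle part was tested by support: it held 33.0% of the intervals supported by both and 29.0% of those supported by neither, a difference of 3.96 percentage points that did not pass Fisher's exact test (two-sided, p = 0.224).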

How the data were processed

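Interval lists were used for the 2 ChIP libraries, grouped by title, and for the whole series. Per the labels' protocols, worms were fixed in 2% formaldehyde, quenched with 100 mM Tris and sonicated. Per the file headers and source column, intervals came from PeakSeq on WormBase WS220. The authors deposited 1 p-value or q-value per interval, without saying which, and interval starts and ends. The PeakSeq version, aligner, thresholds, use of the inputs and pooling of replicates are not stated in the labels or headers. A list is thus 1 call without an error, and a deeper library usually yields more and weaker intervals.

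Overlap was at least 1 bp, runs had 3 or more intervals with gaps of 2 kb or less, and windows of 500 kb took midpoints. Shares were compared by Fisher's exact test, adjusted by Benjamini-Hochberg over 4 shares at a threshold of 0.05. Intervals are not independent, so p-values cover counting error at most. For shares in runs they cover less, because whole runs enter together. The intervals, comparisons and named positions (the 15 strongest, 10 widest, 5 longest runs, the 3 densest and sparsest windows, and the 3 strongest without a partner per replicate) were chosen with earlier results of these data known. Other named positions were chosen after their values were seen. Python 3.11.15, numpy 2.4.6, pandas 2.3.3, scipy 1.17.1 and matplotlib 3.10.9 were used, and counting and test steps were tested on simulated data.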

Additional observations from a re-analysis of the deposited data

How the results depend on the processing

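Of 52 alternatives over 8 results, 33 kept direction and side of the threshold; for the remaining changes the cause was not tested. Differences are IV minus other chromosomes, in percentage points. For support by both replicates it turned to 1.87 among intervals of at least 200 and under 500 bp. For support by neither it was −1.35 with reciprocal overlap of 50%, −2.79 without the longest run and −1.13 against X alone, none past the test, and turned to 1.07 against II alone. For runs it was −0.17 to 4.14 in the replicate lists, with −0.085 in replicate 1, and −0.17 in replicate 2 without the longest run. For replicate 2 overlap it was −1.55 in the stronger 50%, −4.63 in that width class, −6.84, −5.75 and −1.55 against II, V and X alone, none past the test. The middle-part difference was −0.23 with replicate 1 support and 3.59 with replicate 2 support. The densest window held 41 and 29 intervals in the replicate lists, and 47 as a 250 kb window. The median width was 278 bp without intervals under 50 bp and 403 bp in the stronger 50%. The rho was 0.71 with reciprocal overlap of 50%. Comparisons by width class, by chromosome and without the longest run were chosen after seeing the data. No paired analysis was possible because all results come from lists of the ChIP libraries, and the inputs were not analysed here. Depth is unknown.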

Other observations

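A width of 199 bp was the most frequent on chromosome IV in all 3 lists. In the combined list 39 of the 1788 intervals had it, against 3 with 200 bp and 10 with the next most frequent width, 182 bp. Of these 39, 30 overlapped neither replicate list and 0 overlapped both, and their median value was 2.79e-04. This was near what all narrow intervals showed. Of the 616 on IV of at least 50 and under 200 bp, 448 (72.7%) overlapped neither list and 0 overlapped both. Over all chromosomes 161 combined intervals (2.01%) had that width. In replicate 1 it was 23 of 822 on IV, and in replicate 2 it was 5 of 395, where 444 bp was as frequent.

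Few wide intervals of the combined list on IV overlapped neither replicate list. Of the 49 of at least 1000 bp it was 3 (6.12%), against 14.7% on the other chromosomes. Of the 270 of at least 500 and under 1000 bp it was 50 (18.5%), against 27.9%. These differences were not tested. The 3 strongest intervals of IV without any counterpart were at 15270793 to 15271844 (1052 bp, value 1.38e-10), 5139471 to 5140477 (1007 bp, 4.79e-09) and 11491052 to 11491991 (940 bp, 1.16e-08). Each stood in a run. In the other direction, 85 replicate 1 intervals and 22 replicate 2 intervals of IV overlapped no combined interval, and all of these lacked a partner in the other replicate too. The shares that met the combined list, 89.7% and 94.4% on IV, were near the 90.7% and 95.5% over all chromosomes. These positions were chosen after their values were seen.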
